A study of Mus musculus with 8 samples.

Results

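The collagen chain genes are the 43 of 17276 listed genes whose symbol has the form Col, a number, a and a number, chosen by name alone. Collagens are matrix proteins of 3 chains wound into a triple helix. Fibrillar chains (11 members here) build the cross-linked fibrils of scar and connective tissue, type IV chains (6 members) build the sheet-like network of basement membranes, and the 26 others decorate fibrils, anchor epithelia, span membranes or carry heparan sulfate. In liver, stellate cells and fibroblasts are known as the main source of fibrillar types I and III, and hepatocytes as a source of type XVIII.

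The series compared hepatocytes, the parenchymal cells of liver, from wild-type male C57BL/6N mice aged 6 to 8 weeks, kept static (4 libraries) or exposed to shear stress (4 libraries), the drag of moving fluid on cells. The labels leave out how strong the stress was and how long it lasted. They also leave out whether libraries of a group are separate mice or cultures, so the spread behind each p-value may be technical. Depth was between 15067056 and 17935566 estimated counts per static library and between 16225843 and 16732203 per shear stress library. In bulk samples such as these, fewer cells of a type and less RNA per cell cannot be told apart.

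Levels of one gene are given as CPM, normalised with TMM (trimmed mean) factors to library size, and the order of different genes by level is taken only from deposited TPM, which divides by gene length. A change is the log2 ratio of shear stress to static ± its standard error, from edgeR's quasi-likelihood test fitted on all genes with enough counts, with Benjamini-Hochberg adjusted p-values and a threshold of 0.05. A gene is said to rise or fall where it passed this threshold. The replicate numbers turned out to pair libraries across groups, so results with the number as a block are given where they change the call of a collagen gene or the count of a list.

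Most collagen chain genes lay at or near the count floor. Of the 43 members, 11 (25.6%) had enough counts to be tested, against 11747 of 17276 (68.0%) of all genes. Another 16 exceeded 3 counts in at least 1 library but were removed by the filter, 15 never exceeded 3 counts, and Col19a1 had 0 counts in all 8 libraries. The highest count of any untested member in any library was 18, for Col14a1. Because a gene high in only 1 group can pass the filter through that group, the 11 tested members do not stand for all 43.

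**Figure D1:**
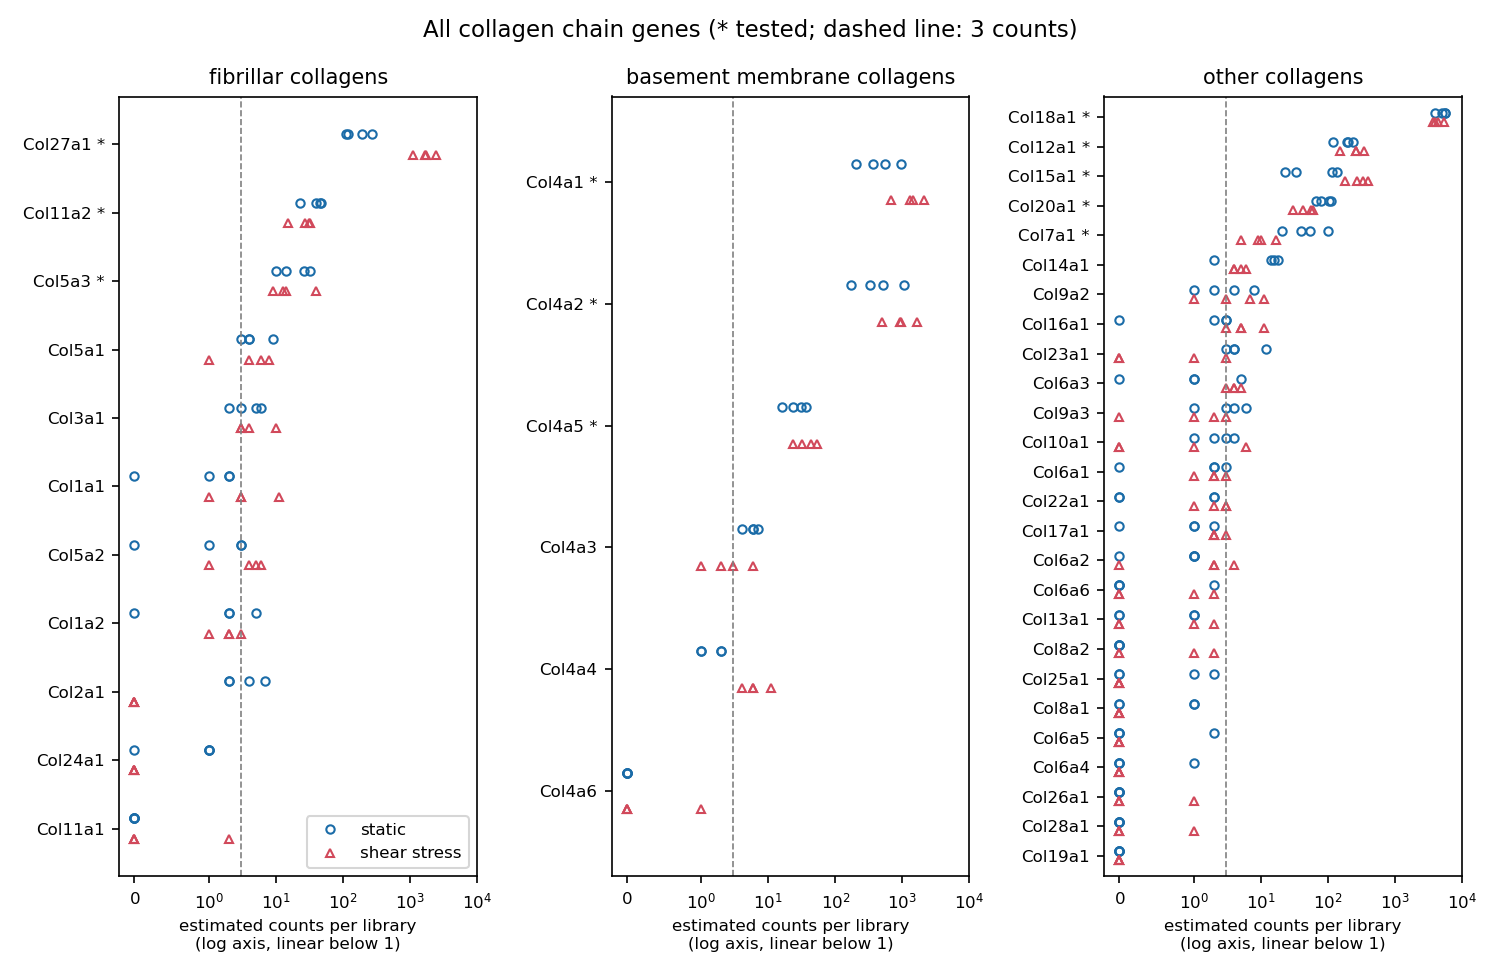
Estimated counts per library (horizontal log axis, linear below 1) for all 43 collagen chain genes by class, with 4 static (circles) and 4 shear stress (triangles) libraries and tested genes marked by a star. In the fibrillar class only Col27a1, Col11a2 and Col5a3 lie clear of the dashed line at 3 counts, and Col1a1, Col1a2 and Col3a1 stay at 11 counts or fewer.

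The classical fibrillar chains were among the genes near the floor. Col1a1 and Col1a2, the chains of type I collagen, had between 0 and 5 counts per static library. Under shear stress Col1a1 had 1, 3, 3 and 11 counts and Col1a2 had 2, 3, 2 and 1. Col3a1, the type III chain, had 5, 3, 6 and 2 counts in static and 10, 4, 3 and 3 in shear stress libraries. These groups overlapped, and a difference was not detectable at this depth. Col5a1 and Col5a2, whose products join type I fibrils, had at most 9 and 6 counts, Col24a1 at most 1 and Col11a1 at most 2. The cartilage gene Col2a1 had 7, 4, 2 and 2 counts in static and 0 in all shear stress libraries, which allows up to 3 counts per library.

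Of the type IV genes, Col4a3 and Col4a4, whose products form the network of kidney filters, stayed at or below 7 and 11 counts, and Col4a6 had 1 count in 1 library. Among the others, the type VI genes Col6a1 to Col6a6 and the type VIII genes Col8a1 and Col8a2 had at most 5 counts in any library. The fibril-surface (FACIT) genes Col9a2, Col9a3, Col14a1 and Col16a1, the network gene Col10a1 and the transmembrane collagen gene Col23a1 reached more than 3 counts, and Col14a1 had 16, 14, 18 and 2 counts in static and 6, 4, 5 and 4 in shear stress replicates. Col13a1, Col17a1, Col22a1, Col25a1, Col26a1 and Col28a1 never exceeded 3.

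When every gene with at least 1 count was tested, 42 members entered and 3 more were called, namely Col2a1 (-5.04, edgeR adjusted p = 0.00801), Col23a1 (-2.57, adjusted p = 0.0361) and Col4a4 (1.92, adjusted p = 0.0262). In that test 35.5% of the 17102 genes were called. Each of these 3 rests on at most 12 counts per library.

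Defining markers of other liver cells ranged from near 0 to clearly detected. The stellate cell markers Lrat and Des had at most 3 and 12 counts per library, the myofibroblast marker Acta2 at most 10, the bile duct marker Krt19 at most 6, the macrophage marker Adgre1 at most 5 and the mesothelial marker Msln at most 2. Msln was at 0 in all static libraries, and none of these genes was at 0 in all 8. The endothelial markers were higher, with 7 to 25 counts per library for Stab2 and, for Pecam1, 233, 123, 170 and 95 counts in static and 68, 21, 22 and 21 in shear stress replicates. Of the other markers of these cells, the stellate cell gene Ecm1 reached 631 counts, the myofibroblast genes Fbln2 and Dcn 399 and 127, and the bile duct genes Spp1 and Sox9 28353 and 1285. These are the highest of their lists, which were mixed. The stellate cell genes Reln and Nes reached 149 and 108 counts, but Pdgfrb and Cygb 9 and 8. The myofibroblast genes Lum, Eln and Mfap4 reached 4, 3 and 1. Acta2, which was not tested, had 3, 1, 0 and 2 counts in static and 5, 10, 7 and 5 in shear stress replicates. These do not overlap, as was the case for 45.3% of all tested genes. Postn, of the same list and also not tested, had 7, 0, 5 and 2 against 10, 1, 4 and 0 counts, which overlap. Hepatocyte markers were abundant and summed to between 68095 and 87369 CPM in static against 46128 to 61627 CPM in shear stress libraries. Of 7 tested, 6 fell and none rose, against 23.7% of all tested genes lower, with a median of -0.57, and with library totals 3 fell. Serpina1a, a protease inhibitor gene, fell 1.39-fold (adjusted p = 0.00184), Apob, an apolipoprotein gene, 1.57-fold (adjusted p = 0.00243) and Ttr, the transthyretin gene, 1.49-fold (adjusted p = 0.00647).

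Of the 11 tested members, 2 rose (Col27a1 and Col15a1), 2 fell (Col7a1 and Col20a1) and 7 were not called. The 4 calls are 36.4% of the members tested, below the 48.6% called among all 11747 genes, of which 24.9% were higher and 23.7% lower. With the replicate number as a block 4 rose (Col4a1 and Col4a2 in addition) and 3 fell (Col18a1 in addition). The blocked calls are 63.6% of the members tested, against 61.1% of all genes (30.1% higher and 31% lower). DESeq2 called 3 higher and 3 lower, where it called 52% of all genes (26% in each direction). With library totals in place of TMM factors 3 members rose and 2 fell, and over all genes 4157 rose and 1539 fell in place of 2924 and 2783. The median log2 fold change of the tested members was 0.29, and that of all tested genes was -0.01.

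**Figure D2:**
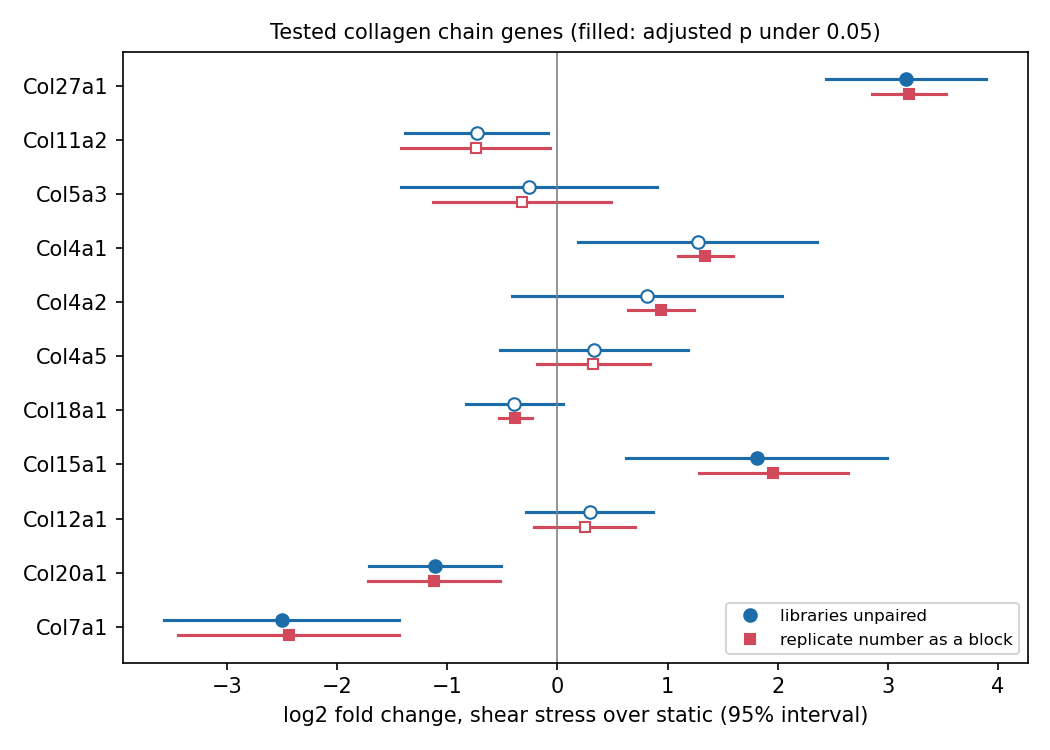
Log2 fold change of shear stress over static (horizontal axis) with its 95% interval for the 11 tested collagen chain genes, with libraries unpaired (circles) and with the replicate number as a block (squares), filled where the adjusted p was under 0.05. Estimates of both fits lie close together, and the intervals of Col4a1, Col4a2 and Col18a1 are narrower with the block.

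Col27a1 showed the largest change of the tested members. It encodes a fibrillar chain with a shortened helix, known from cartilage, that forms homotrimers (chromosome 4, 63214009 to 63334991, GRCm38). Its sequence upstream of a RefSeq start inside this span is shown because the gene had the largest rise among the tested members. It comes from the RefSeq promoter table (GRCm38.p6, chr4:63215162-63215411, plus strand), with a GC box (GGGCGG, a site type bound by Sp1 proteins) in capitals:
Col27a1: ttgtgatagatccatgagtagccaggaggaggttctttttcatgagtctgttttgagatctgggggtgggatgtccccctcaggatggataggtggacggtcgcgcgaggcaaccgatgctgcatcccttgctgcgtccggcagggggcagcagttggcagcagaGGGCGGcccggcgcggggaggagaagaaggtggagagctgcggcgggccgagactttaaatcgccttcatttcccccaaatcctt

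Col27a1 stood at 11.9, 6.40, 9.02 and 16.2 CPM in static replicates 1 to 4 and at 102, 89.0, 63.2 and 138 CPM in the corresponding shear stress libraries. All shear stress libraries lay above all static libraries, and the lowest of them, replicate 3, was still well over the highest static library. The gene rose 8.98-fold (3.17 ± 0.32, edgeR adjusted p = 0.000138). Within replicate numbers the rise was 8.54-fold, 13.9-fold, 7.01-fold and 8.49-fold. Its adjusted p stayed at or below 0.000757 when any 1 library was left out. The genes Gm52743 and Mir455 overlap Col27a1, and since the strand of the libraries is not given, reads of overlapping genes cannot be told apart.

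Col27a1 moved up the order of the family. By deposited TPM it averaged 2.02 ± 0.772 in static libraries, below Col4a2 (6.36 ± 4.33) and Col4a1 (6.17 ± 3.40), although each of these overlapped the next in the order. Under shear stress it averaged 19.4 ± 5.58 TPM and stood second to Col18a1, overlapping Col4a1 at 17.6 ± 7.17. Its share of all collagen TPM lay between 1.52% and 2.92% in static libraries and between 9.04% and 20.3% under shear stress. Col4a2 at 13.2 ± 6.05 TPM and Col15a1 at 5.16 ± 1.62 TPM followed, and Col15a1 did not overlap the next gene, Col12a1 at 1.798 ± 0.553 TPM. The other tested members stood at 0.573 TPM or less under shear stress, and at 1.003 TPM or less in static libraries below Col12a1 (1.34 ± 0.327) and Col15a1 (1.23 ± 0.836). Summed fibrillar TPM was 3.11 ± 0.884 in static libraries and 20.4 ± 5.58 under shear stress (SD, n = 4). Of these sums Col27a1 alone made up 2.02 and 19.4 TPM on average.

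The other tested fibrillar genes were low and not called. Col11a2, a chain of the cartilage collagen type XI (chromosome 17, 34038919 to 34066684), had static values of 2.90, 2.33, 1.74 and 2.76 CPM and shear stress values of 0.868, 1.62, 1.85 and 1.53 CPM. The groups overlapped through static replicate 3 (-0.73 ± 0.29, adjusted p = 0.0604), without which the adjusted p was 0.0396. DESeq2 gave an adjusted p of 0.0499. Col5a3, a type V chain (chromosome 9, 20770050 to 20815117), was at 1.27 ± 0.578 and 1.08 ± 0.833 CPM, with shear stress replicate 1 at 2.31 CPM and the other shear stress libraries at 0.736 CPM or less (-0.26 ± 0.52, adjusted p = 0.707, 95% interval -1.42 to 0.90).

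Col4a1 and Col4a2 encode the chains of the common basement membrane collagen, which assembles from the α1 and α2 chains. Both genes lie head to head on chromosome 8 (11198423 to 11312889, minus strand, and 11312805 to 11449287, plus strand). These RefSeq genes overlap by 85 bases. The 22 bases between their starts in the RefSeq promoter table (GRCm38.p6, chr8:11312805-11312826) are shown on the plus strand because transcripts of both genes begin at their ends, with a GC box (GGGCGG) in capitals:
Col4a1 and Col4a2: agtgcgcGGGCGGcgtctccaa

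Col4a1 was at 34.0, 11.8, 27.7 and 56.3 CPM in static replicates 1 to 4 and at 76.2, 35.7, 82.8 and 119 CPM in the shear stress replicates. For Col4a2 the static values were 31.7, 10.01, 25.1 and 63.7 CPM and the shear stress values 52.9, 26.4, 55.8 and 94.5 CPM. For both genes replicate 2 was lowest and replicate 4 highest in each group. The groups overlapped, while in each of the 4 replicate numbers the shear stress library was higher.

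Without the pairing neither gene passed the threshold. Col4a1 stood at 1.27 ± 0.48 (edgeR adjusted p = 0.053), and at adjusted p = 0.0214 without static replicate 4 and 0.0278 without shear stress replicate 2. With any other single library left out Col4a1 was not called (edgeR adjusted p = 0.0763 to 0.142), nor with no filter on counts (0.122). It was called by DESeq2 (adjusted p = 0.00836), with library totals (0.0275), with upper quartile factors (0.0417) and on FPKM (0.0218 to 0.026). Col4a2 stood at 0.81 ± 0.54 (adjusted p = 0.239). With the replicate number as a block Col4a1 rose 2.54-fold (1.34 ± 0.11, adjusted p = 1.03e-05) and Col4a2 1.92-fold (0.94 ± 0.13, adjusted p = 0.000271). These blocked calls held without any 1 of the replicate numbers (adjusted p at most 6.94e-05 for Col4a1 and 0.00168 for Col4a2).

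**Figure D3:**
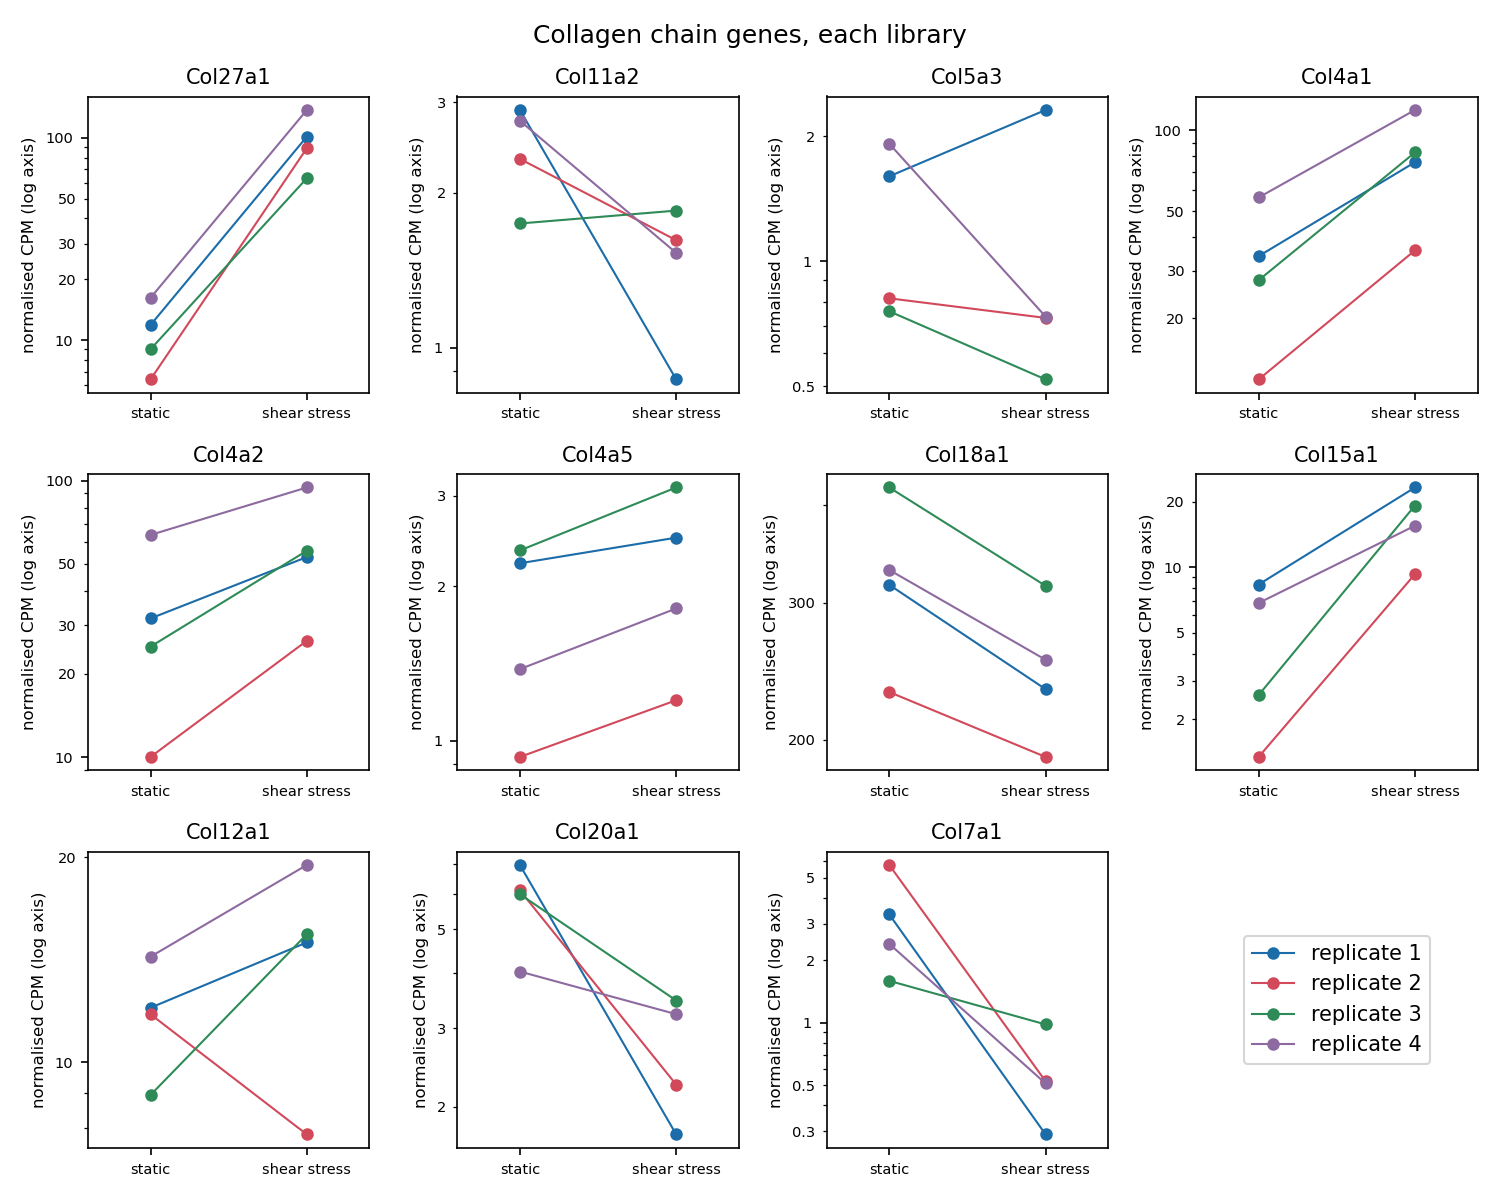
Normalised CPM (vertical log axis, scaled for each gene) of the 11 tested collagen chain genes in static and shear stress libraries, with a line joining libraries of the same replicate number. Every line rises for Col27a1, Col4a1, Col4a2, Col4a5 and Col15a1, and every line falls for Col18a1, Col20a1 and Col7a1.

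The balance of both type IV chains is given as a description with no test, since it was chosen after the values were seen. The ratio of Col4a1 to Col4a2 counts, which does not depend on how libraries are scaled, had values of 1.07, 1.18, 1.10 and 0.884 in static replicates 1 to 4. Under shear stress it was 1.44, 1.36, 1.48 and 1.26. All shear stress values lay above all static values, with means of 1.06 ± 0.126 and 1.38 ± 0.098 (SD, n = 4). With deposited TPM, which also divides by length, the means were 1.03 ± 0.123 and 1.35 ± 0.0968. Within replicate numbers the ratio was higher under shear stress in 4 of 4. Reads of the 85 bases that both genes share cannot be told apart without strand.

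**Figure D4:**
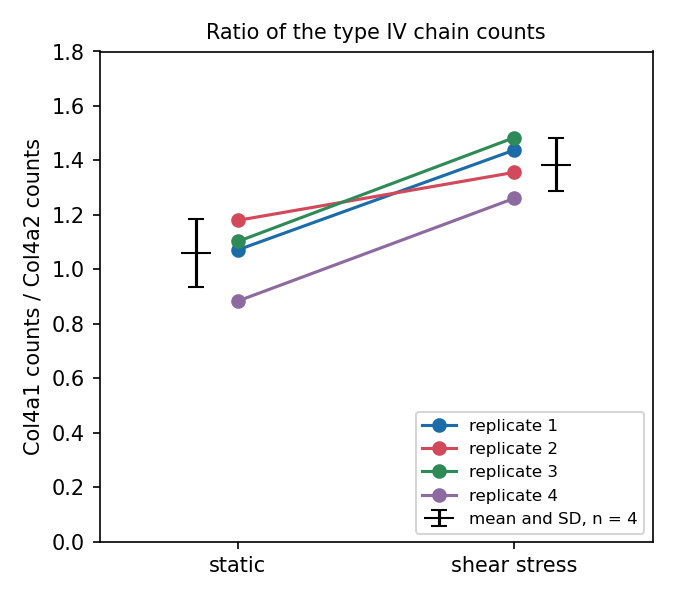
Ratio of Col4a1 to Col4a2 estimated counts (vertical axis, from 0) in each library, with a line joining libraries of the same replicate number and black bars for mean and SD of 4 libraries. The static ratios lie between 0.884 and 1.18 and the shear stress ratios between 1.26 and 1.48.

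Col4a5, the X-linked type IV chain gene (chromosome X, 141475370 to 141689236), had 2.22, 0.931, 2.35 and 1.38 CPM in static replicates and 2.49, 1.20, 3.12 and 1.81 CPM under shear stress. It was higher in 4 of 4 replicate numbers and was called neither without the block (0.33 ± 0.38, adjusted p = 0.499) nor with it (0.33 ± 0.23, adjusted p = 0.244).

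The multiplexins, Col18a1 and Col15a1, sit in basement membranes and carry C-terminal fragments, endostatin and its relative, known for restraining vessel growth. Col18a1 (chromosome 10, 77052178 to 77166530) was the most abundant member in both groups, at 72.8 ± 14.8 TPM (static) and 65.7 ± 13.9 TPM (shear stress). Its share of all collagen TPM lay between 69.0% and 84.9% in static libraries and between 43.8% and 60.1% under shear stress, ranges that do not overlap. On the CPM scale it was at 316, 230, 422 and 330 in static replicates 1 to 4 and at 232, 190, 315 and 253 in the shear stress replicates. Every shear stress library lay below the static library of its number, and the groups overlapped.

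Col18a1 was not called without the pairing (-0.39 ± 0.20, adjusted p = 0.13, 95% interval -0.83 to 0.05), except without static replicate 2 (adjusted p = 0.0383). With the block it fell 1.3-fold (-0.38 ± 0.07, adjusted p = 0.000729). The blocked call was lost when library totals replaced the TMM factors (-0.16, adjusted p = 0.0611). Library totals moved the median of all tested genes to 0.22, and Col18a1 stayed below 0 under each scaling tried (-0.40 to -0.15) while its call changed.

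Col15a1, the other multiplexin (chromosome 4, 47207655 to 47313167), had 8.32, 1.34, 2.58 and 6.84 CPM in static replicates 1 to 4 and 23.3, 9.29, 19.2 and 15.5 CPM under shear stress. The lowest shear stress library, replicate 2, lay just above the highest static library, replicate 1. The gene rose 3.51-fold (1.81 ± 0.52, edgeR adjusted p = 0.0193), and by 2.80-fold, 6.94-fold, 7.46-fold and 2.27-fold within replicate numbers. With 1 library left out its adjusted p reached at most 0.0471. Col15a1 overlaps 5 other genes of the RefSeq table, and reads shared with them cannot be told apart. The same holds for Col18a1 (Gm7775), Col20a1 (Gm30797), Col7a1 (Mir711), Col4a1 (Gm15418 and Gm32709) and Col4a2 (Gm46030).

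The rises of Col27a1 and Col15a1, and those of Col4a1 and Col4a2 with the block, stand beside these marker sums. Stellate cell markers (4 of 11 tested, none called, median 0.17) summed to between 20.3 and 36.2 CPM in static libraries and to 21.9 to 47.7 CPM under shear stress. Myofibroblast markers (3 of 9 tested, 1 higher, median 0.76) summed to 4.19 to 10.9 and to 5.89 to 27.6 CPM, and the higher one, Fbln2, a matrix protein gene, rose by 3.70 ± 0.89 on the log2 scale from 0.804 ± 0.924 to 10.8 ± 8.43 CPM (adjusted p = 0.00868). Fbln2 had 16, 2, 1 and 34 counts in static replicates and passed the filter through the shear stress group alone. Endothelial markers (7 of 10 tested, 1 higher and 1 lower, median 0.38) summed to 15.8 to 47.3 and to 16.7 to 59.1 CPM, with Stab1 3.27-fold higher (adjusted p = 0.0157) and Pecam1 5.35-fold lower (adjusted p = 0.00324). Bile duct markers (3 of 6 tested, none called, median 0.41) summed to 131 to 1318 and to 215 to 1704 CPM, and to 21.1 to 75.8 and 44.0 to 62.9 CPM without Spp1. Macrophage markers (7 of 8 listed) and mesothelial markers (2 of 5 listed), none of them tested, summed to at most 0.868 and 0.291 CPM. Sums of both groups overlapped for each of these lists. Within replicate numbers the stellate cell, myofibroblast and bile duct sums were higher under shear stress in 4 of 4, and the endothelial sum in 2 of 4. Without the most abundant gene of each list these were 3 of 4 for stellate cells (without Ecm1), 2 for myofibroblasts (without Fbln2), 1 for bile duct (without Spp1) and 0 for endothelium (without Stab1), an alternative chosen after seeing the data. With the block 2 stellate cell and 2 bile duct markers were called higher and none lower, 1 myofibroblast marker higher and 1 lower, and 1 endothelial marker higher and 2 lower. Of all tested genes 24.9% were called higher and 23.7% lower, and 30.1% and 31% with the block. With so few tested genes in each list, these marker counts are not read as a result about the cells. The part of these cells in the collagen results was not tested.

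Col12a1 and Col20a1 encode FACIT collagens, which bind to the surface of fibrils. Col12a1 (chromosome 9, 79598987 to 79721141) had 12.02, 11.8, 8.94 and 14.3 CPM in static replicates 1 to 4 and 14.99, 7.83, 15.4 and 19.5 CPM under shear stress, and these overlapped (0.29 ± 0.26, adjusted p = 0.374, 95% interval -0.29 to 0.87). It was higher in 3 of 4 replicate numbers, and replicate 2 went the other way, without which the blocked fit called it higher (0.53, adjusted p = 0.0199). Col20a1 (chromosome 2, 180983323 to 181017545) had 6.96, 6.11, 5.99 and 4.02 CPM in static replicates 1 to 4, against 1.74, 2.24, 3.46 and 3.23 CPM under shear stress. Its groups did not overlap, and it fell 2.16-fold (-1.11 ± 0.27, edgeR adjusted p = 0.00756).

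Col7a1 encodes the chain of the anchoring fibrils that hold skin epithelium to its base (chromosome 9, 108953586 to 108984875). Static replicates 1 to 4 had 3.33, 5.76, 1.59 and 2.40 CPM and the shear stress ones 0.289, 0.522, 0.981 and 0.509 CPM, which are 54, 99, 21 and 40 against 5, 10, 17 and 9 counts. The groups did not overlap, and replicate 3 had the smallest difference. Col7a1 fell 5.66-fold (-2.50 ± 0.48, edgeR adjusted p = 0.00232). It passed the filter through the static group alone.

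Over the tested members, 4 of 11 had no overlap between groups, against 45.3% of all tested genes. These were Col27a1 and Col15a1 upward (23.7% of all tested genes) and Col20a1 and Col7a1 downward (21.5%).

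The falling genes Col20a1 and Col7a1, and the low fibrillar gene Col11a2, begin shortly after another gene on the same strand. Between outer RefSeq gene boundaries, Col11a2 starts 0.516 kb after Rxrb, Col20a1 0.797 kb after Arfgap1 and Col7a1 3.94 kb after Uqcrc1. The start of Col20a1 in the RefSeq promoter table lies further inside its span, within chr2:180986285-180986584. Of the other tested members, the nearest had a distance of 34.1 kb to such a gene. Rxrb, a nuclear receptor gene, changed by -1.02 ± 0.10 from 69.8 ± 5.86 CPM (adjusted p = 8.19e-05), and Uqcrc1, a mitochondrial complex gene, by -0.22 ± 0.08 from 228 ± 14.3 CPM (adjusted p = 0.0498). Arfgap1, a trafficking gene, rose by 0.998 ± 0.09 from 27.8 ± 0.987 CPM (adjusted p = 7.72e-05), the opposite direction to Col20a1. As a share of the neighbour's counts, with no regard to gene length, Col7a1 was at 0.653% to 2.75% of Uqcrc1 in static libraries and 0.145% to 0.526% under shear stress. The share of Col20a1 to Arfgap1 was 14.99% to 25.1% and 3.16% to 6.77%, again without overlap. That of Col11a2 to Rxrb was 2.26% to 4.40% and 2.5% to 5.85%, which overlap. The part of reads that run on from these neighbours was not tested.

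Summed over all 43 members, collagen CPM was 437, 291, 512 and 503 in static replicates 1 to 4 and 513, 369, 565 and 651 in the shear stress replicates, 1.2 times as high on average, with overlapping groups. Without Col18a1 the sum was 111 ± 47.8 CPM (static) and 277 ± 91.4 CPM (shear stress; SD, n = 4). The summed type IV genes stood at 67.2 ± 41.0 and 139 ± 62.2 CPM, and the other collagens at 353 ± 76.0 and 284 ± 59.1 CPM.

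Promoter windows of the RefSeq table, 250 bases before to 50 after a start, were found for 10 of the 11 tested members, all but Col12a1. Both strands were searched for 6 motifs. These genes had 11 windows, since Col18a1 had a further window, so matches are counted by gene while the shares are over windows. For Col18a1, GGGCGG and CCAAT matched only in chr10:77166481-77166780 and GGAATG only in chr10:77113656-77113955. GGGCGG was present in windows of 8 of these genes, all but Col15a1 and Col20a1 of those with a window, and in 35.7% of all 32851 windows. CCAAT was present for 6 genes, including Col4a1 and Col4a2, whose windows overlap, and in 37.4% of all windows. TATAAA was present for Col11a2 (13.6% of all windows), and GGAATG, the core of TEAD sites, for Col18a1 and Col20a1 (14.7%). TGANTCA, the AP-1 site, and the CArG box of serum response factor had no match in these windows (7.81% and 1.63% of all windows). These are matches of letters only.

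Chains need many enzymes and helpers before they are secreted and cross-linked. The lists of assembly, receptor and turnover genes used below were set with earlier results of these data known. Of 34 assembly genes 18 were tested, of which 3 rose, 8 fell and 7 were not called, with a median of -0.28 against -0.01 for all tested genes. Over all tested genes 24.9% rose and 23.7% fell. Pcolce2, an enhancer of procollagen C-terminal cleavage, rose 13.4-fold from 1.15 ± 0.373 to 15.3 ± 7.96 CPM (adjusted p = 0.000175). Loxl4, a lysyl oxidase that cross-links collagen, rose 4.36-fold to 26.4 ± 8.62 CPM (adjusted p = 0.000985). Bmp1, the protease that removes procollagen C-propeptides, rose 1.39-fold to 157 ± 14.9 CPM (adjusted p = 0.00289).

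Of the 8 genes that fell, 5 are named here. Plod2, a lysyl hydroxylase, fell 2.87-fold to 1.04 ± 0.56 CPM (adjusted p = 0.0127), and Fkbp14, a foldase of the endoplasmic reticulum, fell 1.82-fold to 2.48 ± 0.359 CPM (adjusted p = 0.00629). Plod2 had 5, 19, 28 and 22 counts in shear stress replicates and passed the filter through the static group. Mia2, which helps to load large cargo at endoplasmic reticulum exits, fell 1.39-fold to 495 ± 21.9 CPM (adjusted p = 0.00331). Plod3, another lysyl hydroxylase, and Tmem38b, an endoplasmic reticulum ion channel gene, fell 1.39-fold (adjusted p = 0.0247) and 1.42-fold (adjusted p = 0.0211). These last 2 calls were lost with 4 and 3 of the 8 single libraries left out (adjusted p up to 0.0716 and 0.0638). With the block P4hb, the disulfide isomerase subunit of prolyl hydroxylase, also fell (-0.27, adjusted p = 0.0313, against 0.0856 without it). With library totals 4 assembly genes rose, among them Ppib, an endoplasmic reticulum foldase (0.53, adjusted p = 0.014, against 0.30 and 0.111 with TMM factors). P4hb and Ppib were named after their values were seen. In the fit with library totals 2 assembly genes (Plod2 and Fkbp14) fell in place of 8, and Mia2 was not called (-0.25, adjusted p = 0.0962). With upper quartile factors 3 fell, and 5 when static replicate 2 or either of shear stress libraries 1 and 4 was left out. Serpinh1, the collagen chaperone, was at 0.512 ± 0.269 and 0.632 ± 0.171 CPM (0.28 ± 0.42, adjusted p = 0.6).

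Of 10 collagen receptor genes 7 were tested, of which 1 rose, 2 fell and 4 were not called, with a median of -0.07. These 3 calls of 7 lie near the 48.6% of all genes. Both discoidin domain receptors, which are collagen-binding tyrosine kinases, changed in opposite directions. Ddr1, the epithelial one, ranged from 10.2 to 12.4 CPM in static libraries and from 20.6 to 32.5 CPM under shear stress and rose 2.24-fold (adjusted p = 0.000427). Ddr2, the mesenchymal one, ranged from 2.12 to 3.82 CPM in static libraries and from 0.0522 to 0.289 CPM under shear stress, which are 1 to 5 counts (-4.20 ± 0.42, adjusted p = 0.000106). Mrc2, an endocytic collagen receptor, went from 2.02 ± 0.855 to 0.138 ± 0.0667 CPM, at most 4 counts per shear stress library (-3.80 ± 0.47, adjusted p = 0.000273). Both Ddr2 and Mrc2 passed the filter through the static group alone. Itga2, the α2 subunit of a collagen-binding integrin and not among the genes called, was chosen after its value was seen. It stood at 1.49 ± 0.68 (adjusted p = 0.0972) and rose with the block (1.41, adjusted p = 0.000369).

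Of 17 turnover genes 14 were listed and 8 tested, of which 1 rose, 2 fell and 5 were not called, with a median of 0.01. These 3 calls of 8 lie below the 48.6% of all genes. With the block Ctsl, a lysosomal protease gene named after its value was seen, also fell (-0.30, adjusted p = 0.0027, against 0.168 without it). Ctsk, a collagen-degrading lysosomal protease, fell 5.71-fold to 0.321 ± 0.183 CPM (adjusted p = 0.0028), and Ctsb, a cathepsin of the same compartment, 1.41-fold to 929.96 ± 55.1 CPM (adjusted p = 0.00282). Ctsk had 34, 22, 41 and 18 counts in static and 9, 8, 4 and 2 in shear stress replicates. It passed the filter through the static group alone. Reck, an inhibitor of matrix metalloproteinases, rose 2.55-fold to 1.73 ± 0.22 CPM (adjusted p = 0.0268). Reck had 6, 17, 15 and 4 counts in static and 25, 38, 30 and 31 in shear stress replicates. It passed the filter through the shear stress group alone. The Reck call was lost with 4 of the 8 single libraries left out (adjusted p up to 0.072). With library totals 1 turnover gene was called lower in place of 2.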

How the data were processed

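Messenger RNA of 8 libraries was measured, 4 static and 4 shear stress, grouped by sample titles. The submitters' processing notes name HISAT, Bowtie2, RSEM and the build GRCm38 (mm10). The sources used here give neither versions nor annotation nor strand setting. The authors deposited, per the file headers, expected counts, TPM and FPKM for each gene. TPM and FPKM were computed by the authors and are on a linear scale.

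Expected counts were rounded, genes kept with filterByExpr (minimum count 10), scaled with TMM factors and tested with edgeR 4.0.16 (glmQLFit and glmQLFTest, robust, R 4.3.3). DESeq2 1.42.0 and limma 3.58.1 on log2(FPKM + 0.1) or log2(FPKM + 1) were alternatives. The procedure was tested on simulated data with 200 changed genes. The simulated libraries were unpaired and only 200 of 11747 genes changed, so this does not check the scaling or the pairing. Fold changes are 2 to the power of the log2 change, and standard errors are the log2 change over the square root of F. Same-numbered libraries correlated at r = 0.467 to 0.679 over 8446 genes after removal of group means, and at most at -0.0178 between different numbers. What a number marks is not in the labels. The main fit took the libraries as unpaired, and the fit with the replicate number as a block was an alternative. Libraries of a group differed by more than counting noise (chi-square over degrees of freedom at least 45.2).

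Members were taken by name alone, and this rule and the lists were set with earlier results of these data known. Named were all tested members, up to 8 called genes of each pathway list and up to 3 of each other cell type list. Coordinates are RefSeq GRCm38.p6 (43 of 43 members matched), strands GENCODE M21. Over library totals without TMM factors, 3 counts are between 0.167 and 0.199 CPM, which covers counting error only. With TMM factors, 3 counts were 0.227 CPM in static replicate 3 and 0.157 CPM in shear stress replicate 2.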

Additional observations from a re-analysis of the deposited data

Results flagged for a closer look

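Col5a3 in shear stress replicate 1 stood at 2.31 CPM, while the other 3 shear stress libraries lay between 0.519 and 0.736 CPM. The gap was 0.879 of the range of the group, above Dixon's 95% critical value for 4 samples. It was the only one of 22 groups of 4 values (11 tested members in each condition) with such a gap, and chance gives about 1 in 20. Col5a3 was not called in any of the fits run.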

How the results depend on the processing

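The signs of 10 of the 11 tested members were the same under all alternatives. The exception was Col5a3, at -0.92 without shear stress replicate 1 but 0.0076 without static replicate 4 and 0.068 with the replicate block without replicate 4. The calls of Col27a1, Col15a1 and Col7a1 held under every alternative, and that of Col20a1 under all but FPKM with pseudocount 0.1 (adjusted p = 0.0511, or 0.062 without a filter). Collagen genes called higher numbered 2, and 4 with the replicate block, with the block and library totals, and with unfiltered FPKM. Leaving out 1 library gave 2 to 3, and the block without a replicate number 4 to 5. Genes called lower numbered 2, and 4 with no filter on counts, 1 with FPKM and pseudocount 0.1, 2 to 3 without 1 library and 3 to 4 with the block without a replicate number. Over all genes, 2924 were called higher and 2783 lower. With the block and library totals 5080 were higher. Lower were 1539 with library totals and 1688, 1675 and 1837 with FPKM (pseudocount 0.1, pseudocount 1, no filter). Without 1 library 2436 to 2841 were higher and 2224 to 2681 lower, and with the block without a replicate number 3138 to 3341 and 3008 to 3456. The replicate block itself called 3531 and 3645. Library totals, upper quartile factors and FPKM moved the median log2 change of all genes to 0.22, 0.13 and 0.20. The summed collagen ratio of shear stress over static was 1.20, and 1.41 with library totals, 1.34 with TPM, 2.49 without Col18a1 and 1.17 to 1.24 without a replicate number. The Col4a1 to Col4a2 ratio difference lay between 0.31 and 0.45 (log2) without 1 library. The blocked fits without a replicate number or with library totals, and the alternatives for the ratio and the sum, were chosen after seeing the data. Depth limits the 32 untested members.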
